A study of Mus musculus with 42 samples.

Results

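The Hox cluster genes were taken as all gene rows of the count table whose symbol is Hox followed by a, b, c or d and a number, which gave 39 of 45317 gene rows: 11 Hoxa, 10 Hoxb, 9 Hoxc and 9 Hoxd genes. Hox genes encode homeodomain transcription factors that set position along the body axis and the limbs. They sit in 4 clusters, and paralog group numbers from 1 to 13 run along each cluster from genes used at anterior levels to genes used at posterior and distal levels. Trithorax complexes place H3K4me3, a mark of active promoters, and Polycomb repressive complex 2 places H3K27me3, a mark of silenced developmental genes. Stromal cells in culture are known to keep a Hox pattern that reflects where in the body they came from. In mice the clusters lie at chr6:52155367-52260880 (Hoxa), chr11:96194316-96368254 (Hoxb), chr15:102921131-103036856 (Hoxc) and chr2:74668225-74765142 (Hoxd) in RefSeq's GRCm38.p6, the build that the submitters' notes name as GRCm38 and mm10.

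The cells were mesenchymal stromal cells from long-bone marrow of C57BL/6 mice, bought at passage 6 and used at passage 9 to 10. Plating was at 15000 cells per cm2, attachment took 24 h, and exposure then lasted 48 h. The groups were 0.1% DMSO (the vehicle), 100 nM rosiglitazone (ROSI, an agonist of the nuclear receptor PPAR gamma), 100 nM AGN194204 (labelled 4204, a ligand of the retinoid X receptors, RXR) and 50 nM tributyltin (TBT, an organotin known to activate RXR and PPAR gamma). RNA was sequenced in 6 libraries per group, and H3K4me3 and H3K27me3 were immunoprecipitated in 4 libraries per mark from DMSO and from TBT cells, with 1 input per treatment. No label names separate donors or cultures, so p-values measure the spread between these libraries, which may be technical.

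The RNA libraries held 3801758 to 5347365 gene counts, and Hox genes took 0.132 to 0.153% of them in each library. TBT replicate 2 lay farthest from its group mean over all tested genes, with a root mean square deviation of 0.249 on the log2 scale against 0.198 to 0.229 in the other 23 libraries. Leaving it out gave 9 Hox calls for TBT against DMSO, 0 against 4204 and 9 against ROSI, compared with 9, 0 and 8 with it. Of 14 marrow stromal markers 13 were tested. The summed level of the 14 ran from 5499 to 6552 CPM, which are counts divided by the scaled library total. Col1a1 and Col1a2 were the highest of them in DMSO, at 1814 and 1577 CPM. Lepr was the lowest, with 8 counts in all of DMSO, followed by Nt5e and Eng at 3.14 and 6.05 CPM. Blood cell and macrophage markers summed to 6.92 to 16.4 CPM over 10 genes, and Adgre1 was at 0 in every group. In DMSO nearly all of this sum was Csf1r and Cd68, at 5.99 and 5.40 CPM. Endothelial markers summed to 1.51 to 8.94 CPM over 7 genes. Adipocyte markers summed to 0 to 0.678 CPM in DMSO, 0 to 1.48 in ROSI, 0.683 to 2.48 in 4204 and 1.97 to 3.19 in TBT over 5 genes, with Adipoq at 0 in 3 of the 4 groups. The chondrocyte sum, nearly all Sox9, was 89.7 to 120 CPM in DMSO and 64.8 to 87.7 in TBT. The neural sum, nearly all Nes, was 757 to 825 CPM in DMSO and 549 to 612 in TBT, with Gfap at 0 in DMSO. Their part in the Hox results was not tested.

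Of the 39 Hox genes 26 were measured, all from Hoxa, Hoxb and Hoxc. A gene counted as measured where it passed edgeR's filter on low counts over the 24 libraries. All 9 Hoxc genes were measured, from Hoxc4 to Hoxc13. In Hoxa 9 genes were measured, up to Hoxa10, and the distal limb genes Hoxa11 and Hoxa13 were not. In Hoxb the 8 genes from Hoxb2 to Hoxb9 were measured, and Hoxb1, a hindbrain gene, and Hoxb13, the most posterior gene of the cluster, were not. None of the 9 Hoxd genes was measured. By position, 5 of 8 anterior genes (paralog groups 1 to 3), 13 of 15 central genes (4 to 8) and 8 of 16 posterior genes (9 to 13) were measured.

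No count was found in any of the 24 libraries for 8 genes: Hoxb13, Hoxd1, Hoxd3, Hoxd4, Hoxd10, Hoxd11, Hoxd12 and Hoxd13. With 27234619 gene counts in the 6 DMSO libraries together, a count of 0 allows up to 0.110 CPM (3 counts over the group, counting error only). Hoxa13 and Hoxd9 were at 0 in DMSO too, with 4 counts and 5 counts over all 24 libraries, each from 2 libraries. Hoxa11 had 2 counts in DMSO, both in replicate 4, and 3 counts in all. Hoxb1 had 5 counts in DMSO and Hoxd8 had 6, with 19 and 22 counts in all. For these 13 genes small treatment effects were not detectable at this depth. The 5 with any count could be tested without the filter, and none was called against DMSO in TBT, 4204 or ROSI by edgeR.

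**Figure D1:**
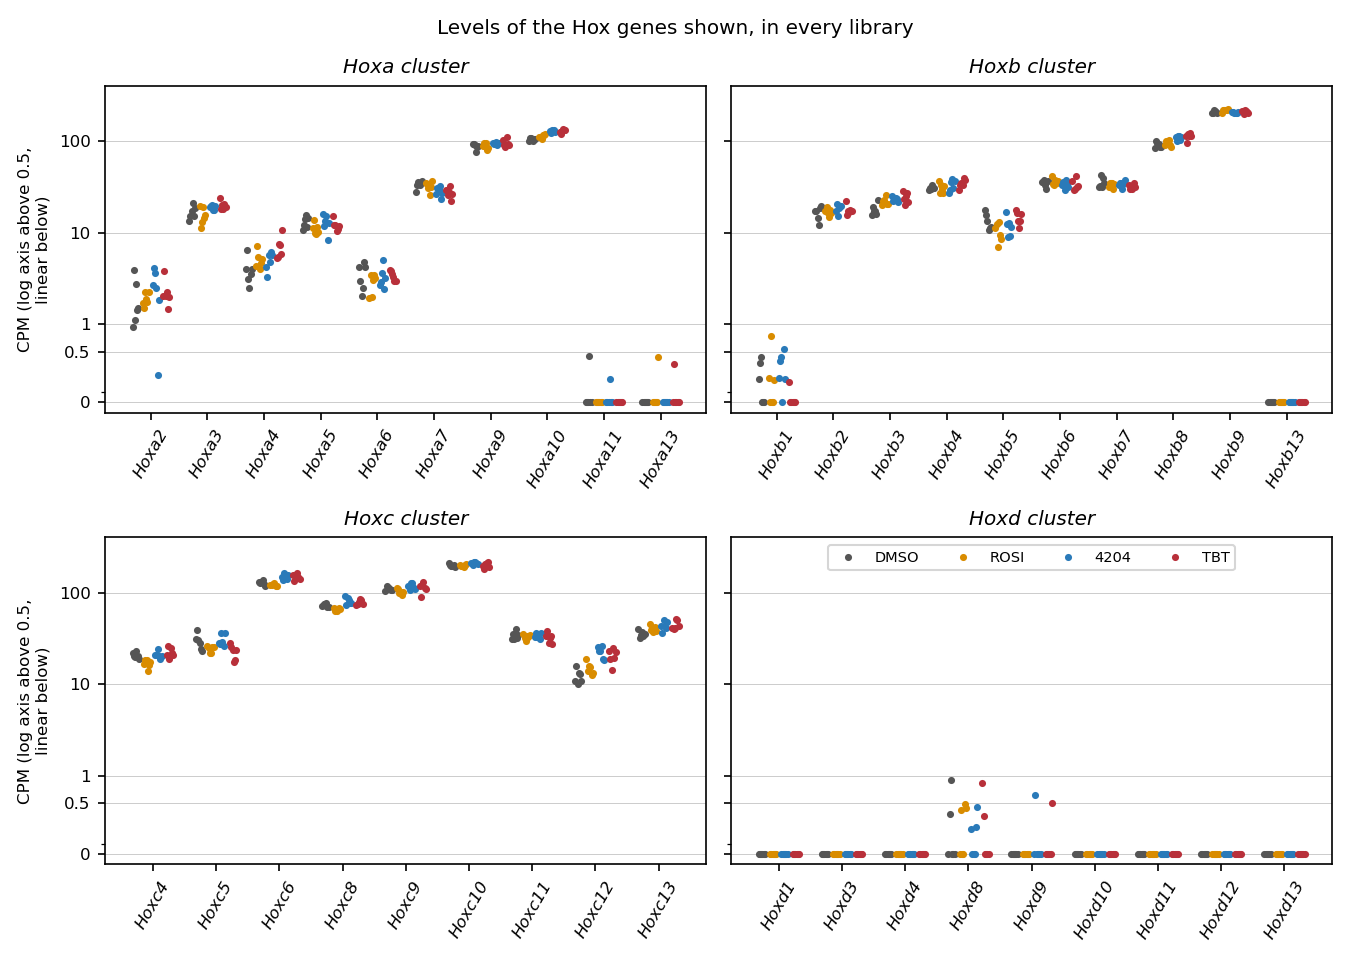
Level of the Hox genes shown in each of the 24 RNA libraries in CPM, on an axis that is logarithmic above 0.5 and linear below, with 1 panel per cluster and genes in paralog order. The measured genes among them lie above 0 in every library, while Hoxa11, Hoxa13, Hoxb1, Hoxb13 and all Hoxd genes lie at or near 0.

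Levels of different genes were not ranked, because exon lengths were not used here. In Hoxa, Hoxa2 had 1.93 ± 1.16 CPM in DMSO (SD, n = 6) and Hoxa10, a limb and uterus patterning gene, 104 ± 3.42. Hoxa9, a regulator of blood progenitors as well as of the skeleton, had 87.8 ± 6.01 CPM, Hoxa7 33.4 ± 3.04, Hoxa3 16.7 ± 2.71 and Hoxa5, needed for the lung and the neck skeleton, 13.1 ± 1.88. Hoxa4 and Hoxa6 had 3.94 ± 1.37 and 3.43 ± 1.10. In Hoxb, Hoxb9 had 209 ± 5.66 CPM, Hoxb8 90.8 ± 5.89, Hoxb7 35.3 ± 4.69, Hoxb6 34.8 ± 2.77 and Hoxb4 30.8 ± 1.15. Hoxb3 had 18.02 ± 2.70 CPM, Hoxb2 16.5 ± 2.80 and Hoxb5 13.3 ± 2.77. In Hoxc, Hoxc10, a gene of the lumbar spine and hindlimb, had 198 ± 6.17 CPM, Hoxc6 128 ± 6.82, Hoxc9 110 ± 4.80 and Hoxc8 73.1 ± 3.28. Hoxc13, known for its role in hair and nails, had 35.2 ± 2.83, Hoxc11 34.0 ± 3.48, Hoxc5 29.2 ± 5.89, Hoxc4 20.7 ± 1.41 and Hoxc12 12.3 ± 2.17. Each of the 26 measured genes had counts in all 24 libraries. In RefSeq several of them overlap other genes of the cluster, Hoxa3 overlaps 8 (among them Hoxa4, Hoxa5 and Hoxa6), Hoxb3 overlaps Hoxb4 and the antisense gene Hoxb3os, and Hoxb5 and Hoxb6 overlap Hoxb5os. The library kit keeps strand, but how strand was used in counting is not stated in any label, so the counts of overlapping genes are uncertain.

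H3K4me3 was at the promoters of most measured Hox genes, H3K27me3 without H3K4me3 was found in DMSO at genes that were not measured, and 7 promoters, of measured and of other Hox genes, carried both marks. A mark was counted at a promoter where an island, a stretch of enriched 200-base windows called by SICER, touched the window of 1 kb on either side of a gene start in at least 3 of 4 libraries. In DMSO 22 Hox promoters carried H3K4me3 alone, 7 carried both marks, 8 carried H3K27me3 alone and 2 carried neither. All 22 with H3K4me3 alone belonged to measured genes, and all 8 with H3K27me3 alone (Hoxa11, Hoxb1, Hoxb13, Hoxd1, Hoxd4, Hoxd10, Hoxd12 and Hoxd13) belonged to genes that were not measured. Of the 7 with both marks, Hoxc12 and Hoxc13 were measured and Hoxa13, Hoxd3, Hoxd8, Hoxd9 and Hoxd11 were not. Hoxa2 and Hoxb3, which had neither mark at the start used, were measured. For Hoxb3 the start was the outer end of a gene that spans 40.8 kb, and H3K4me3 islands covered 31 to 55% of that span in the 4 DMSO libraries. Over the 27025 genes of the promoter table, 39.5% carried H3K4me3 alone, 5.00% both marks, 5.64% H3K27me3 alone and 49.8% neither. Among those with a row in the count table, 90.0% of the genes with H3K4me3 alone, 33.7% of those with both and 2.37% of those with H3K27me3 alone were measured.

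H3K4me3 formed broad islands that ran over several neighbouring Hox genes in Hoxa, Hoxb and Hoxc. In Hoxc the H3K4me3 island with most reads was 58.4 to 68.8 kb long in the 4 DMSO libraries, with 8164 to 12460 reads at 5.301 to 8.74 times the input. It covered Hoxc10, Hoxc9, Hoxc8 and Hoxc6 from end to end, and Hoxc5 over at least 93% of its length. In Hoxa the island with most reads was 20.8 to 39.4 kb long, at 6.84 to 11.7 times the input, and Hoxa9 and Hoxa10 were covered over 100% of their length in all 8 libraries. In Hoxb it was 13.6 to 22.8 kb long, at 5.46 to 8.77 times the input, and Hoxb9, Hoxb6 and Hoxb2 were covered over their full length in all 8 libraries. In Hoxd it was 1.4 to 7.6 kb long, with 117 to 269 reads at 1.30 to 3.06 times the input. The 4 DMSO values per cluster did not overlap between Hoxd and any other cluster in length, reads or ratio to input.

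H3K27me3 lay over most of Hoxd and over the posterior ends of the other 3 clusters, and it was also at Hoxb1 in 3 of 4 DMSO libraries. Over the Hoxd window, which is the cluster plus 10 kb on either side (117 kb), H3K27me3 islands covered 105, 84.0, 102 and 100 kb in DMSO replicates 1 to 4 and 104, 108, 109 and 105 kb in TBT. The H3K27me3 domain reached inward from the outer end of Hoxa13 by 2.48 to 20.9 kb in DMSO, joining islands across gaps of at most 5 kb. In Hoxb it reached 12.7 to 36.9 kb inward from the start of Hoxb13, and in Hoxc 19.3 to 28.1 kb inward from the start of Hoxc13. No DMSO library had an H3K27me3 island on any gene from Hoxb9 to Hoxb4 or from Hoxc11 to Hoxc4. Hoxc12 lay under H3K27me3 over 100% of its length in all 8 libraries and under H3K4me3 over at least 88%, and Hoxc13 under H3K27me3 over at least 84%. These are bulk measurements, in which 2 marks at 1 gene may come from the same or from different cells, and in which fewer cells with a transcript and less RNA per cell cannot be told apart.

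**Figure D2:**
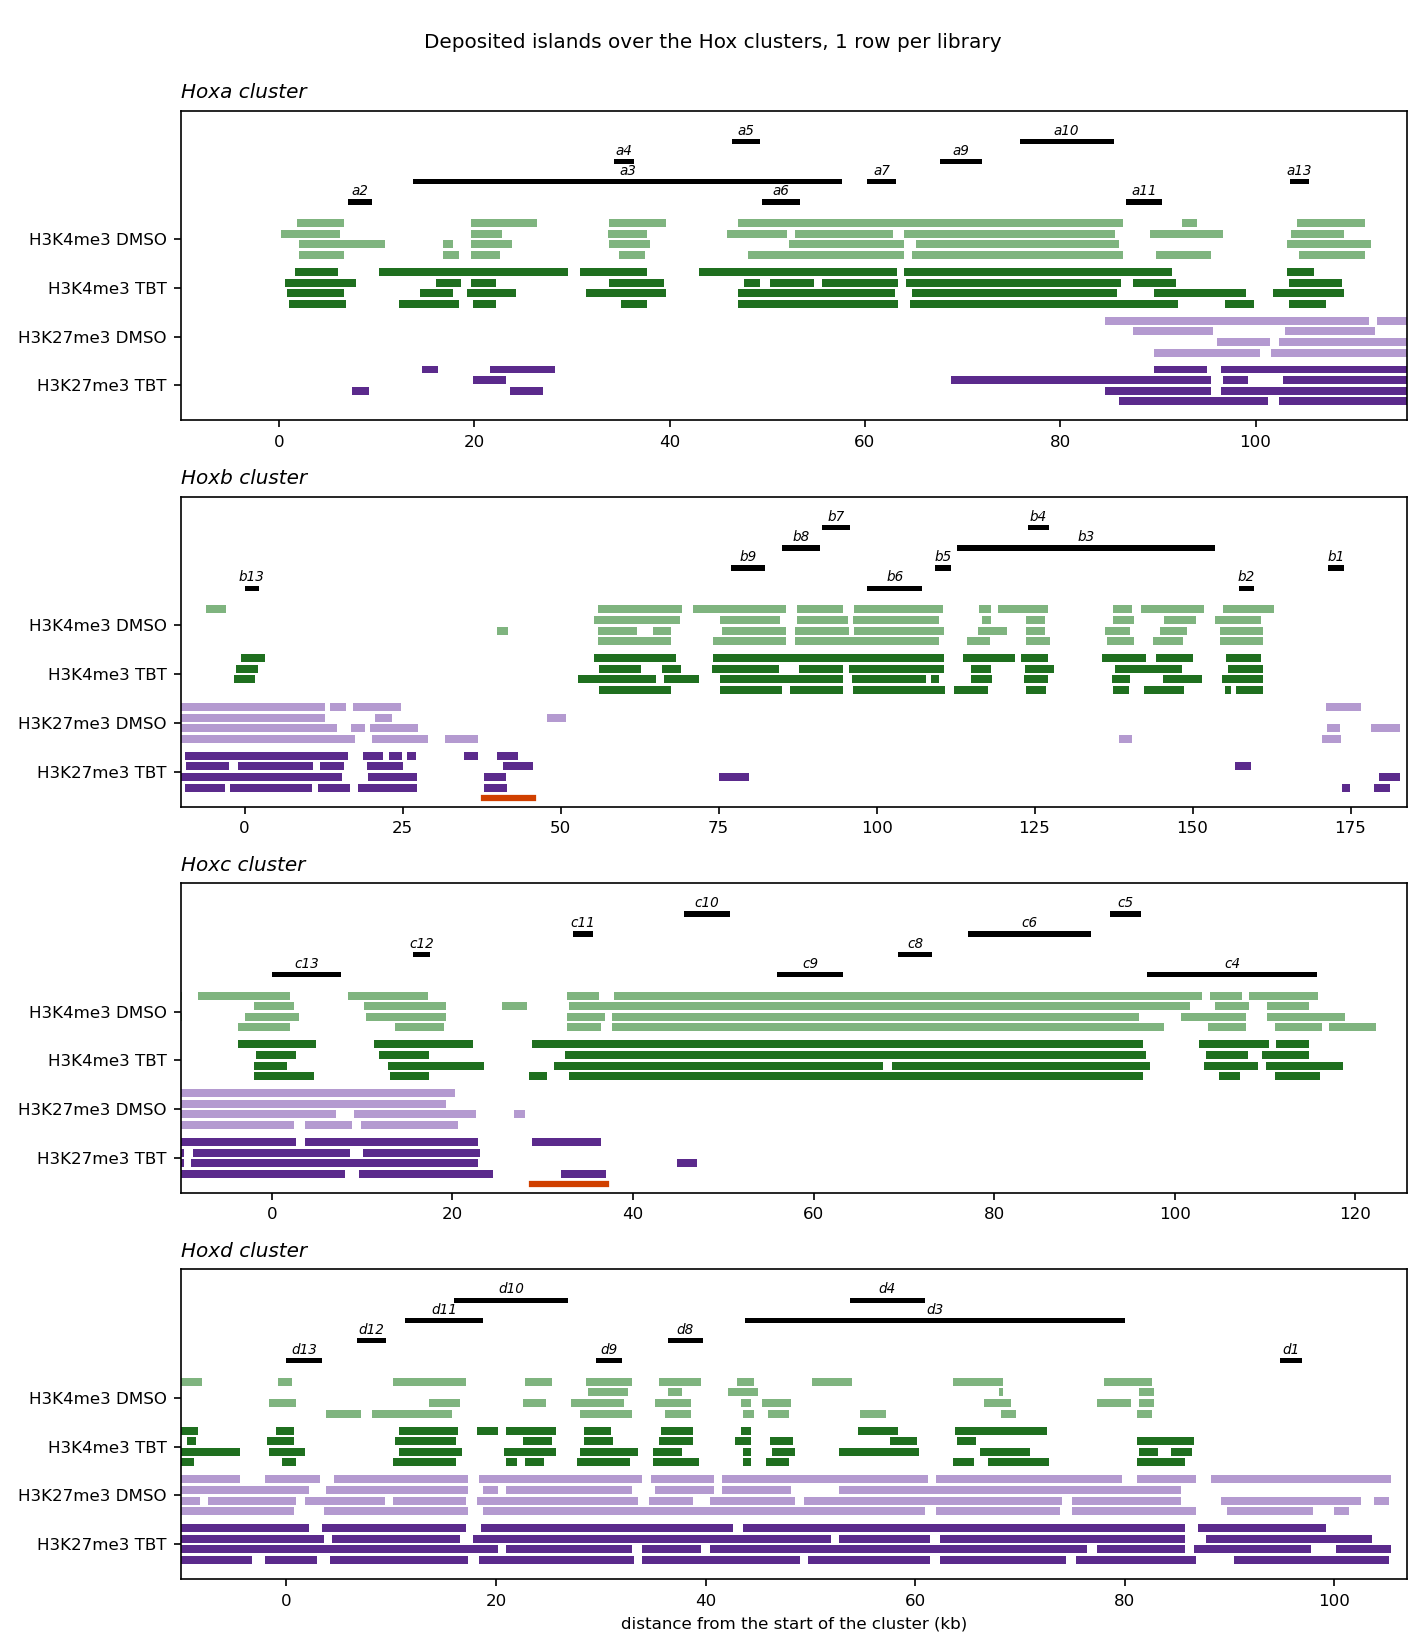
Deposited islands over the 4 clusters, 1 row per library, with distance from the cluster start in kb on the x axis, H3K4me3 in green and H3K27me3 in purple (DMSO light, TBT dark), the genes shown as black bars and the peaks of the authors' deposited table as orange bars. Islands of H3K4me3 fill Hoxc from Hoxc11 to Hoxc5, and islands of H3K27me3 fill Hoxd and the posterior ends of Hoxa, Hoxb and Hoxc.

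Promoter sequences are shown for the called members with the largest changes that are in RefSeq's promoter table (GRCm38.p6), which holds 22 of the 39 genes: Hoxc4, Hoxa3, Hoxb8 and Hoxa10. Each stretch is the 250 bases before a gene start, 5′ to 3′ on the gene's strand, and capitals mark CG dinucleotides, the bases around which H3K4me3 usually lies at mammalian promoters. They run over chr15:103034145-103034394 (plus strand, Hoxc4), chr6:52213068-52213317 (minus strand, Hoxa3), chr11:96281655-96281904 (plus strand, Hoxb8) and chr6:52234940-52235189 (minus strand, Hoxa10). Hoxa10 has 2 starts, and the stretch shown lies before the inner, downstream one. The stretch before its outer start, chr6:52240855-52241104, holds 7 CG dinucleotides at 51.6% G+C. The stretches of Hoxc4 and Hoxb8 also lie inside the gene spans, chr15:103018097-103036856 and chr11:96279401-96285325, and not before their outer ends.
Hoxc4: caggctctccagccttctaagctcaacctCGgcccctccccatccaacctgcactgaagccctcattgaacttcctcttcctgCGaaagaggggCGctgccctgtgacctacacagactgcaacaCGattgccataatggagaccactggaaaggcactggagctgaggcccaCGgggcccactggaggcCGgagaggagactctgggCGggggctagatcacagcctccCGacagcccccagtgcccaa
Hoxa3: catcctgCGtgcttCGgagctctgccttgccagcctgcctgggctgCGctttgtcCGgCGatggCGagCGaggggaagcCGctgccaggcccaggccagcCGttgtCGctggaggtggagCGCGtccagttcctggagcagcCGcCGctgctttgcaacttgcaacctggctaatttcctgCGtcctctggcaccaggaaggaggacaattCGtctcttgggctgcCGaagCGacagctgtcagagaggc
Hoxb8: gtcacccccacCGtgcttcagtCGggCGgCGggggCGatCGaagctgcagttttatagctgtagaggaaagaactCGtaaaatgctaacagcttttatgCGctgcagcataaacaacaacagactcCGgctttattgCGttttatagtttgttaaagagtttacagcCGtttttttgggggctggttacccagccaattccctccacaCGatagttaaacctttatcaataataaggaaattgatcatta
Hoxa10: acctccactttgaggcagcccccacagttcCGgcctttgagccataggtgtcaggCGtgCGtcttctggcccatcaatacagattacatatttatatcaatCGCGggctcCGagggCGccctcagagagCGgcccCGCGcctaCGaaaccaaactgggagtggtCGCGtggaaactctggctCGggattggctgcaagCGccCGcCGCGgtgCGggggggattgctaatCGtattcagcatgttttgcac
These 4 stretches hold 8, 18, 12 and 20 CG dinucleotides at 62%, 64.8%, 44.4% and 59.2% G+C. All 4 genes had H3K4me3 at a start in the table in 4 of 4 DMSO and 4 of 4 TBT libraries. Over the 24 Hox promoters of the table the median was 12.5 CG dinucleotides, in a range from 2 (Hoxd11, first start) to 35 (Hoxa13), against a median of 6 over all 32851 promoters. Both a promoter with 35 CG dinucleotides (Hoxa13) and one with 3 (Hoxd4) belonged to genes under H3K27me3. Nuclear receptors bind pairs of hexamers such as AGGTCA, with variants such as AGTTCA, also GGGTCA, also GGTTCA. Direct repeats of any of these with 1, 2 or 5 bases between them were looked for on both strands. None of the 24 Hox stretches held one, and 0.164%, 0.174% and 0.0883% of all promoters did for the 3 spacings. The letters TGATTNAT, a site of PBX and HOX proteins, were in 2 of 24 (Hoxa2 and the second Hoxd11 start) and in 2.82% of all promoters.

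The marks over the clusters were compared between TBT and DMSO cells, and no tested Hox region was called. Reads were summed over merged islands that were present in all 8 libraries of a mark, which left 15 H3K4me3 and 4 H3K27me3 regions touching the 4 windows. For H3K27me3 this was 1 of 4 merged regions in Hoxa, 1 of 9 in Hoxb, 1 of 4 in Hoxc and 1 of 1 in Hoxd. For H3K4me3 it was 4 of 4, 4 of 7, 3 of 5 and 4 of 13. The H3K27me3 regions were 127.8, 62.2, 74.8 and 120 kb long and ran past the windows, the Hoxa one over chr6:52224201-52352000. A change over a short part of such a region could be missed. By edgeR's quasi-likelihood test with Benjamini-Hochberg adjustment over all regions of the genome, 0 of 15 and 0 of 4 were called. DESeq2 called 0 and 0. By edgeR 3 and 0 had an unadjusted p of at most 0.05. That p was reached by 1040 of 12767 H3K4me3 and 187 of 2885 H3K27me3 regions of the genome. Over the genome 0.0862% of H3K4me3 regions were called higher and 0.0548% lower, and 0% of H3K27me3 regions either way. The broad Hoxc region, chr15:102949601-103043400, held 1414 ± 47.4 CPM of H3K4me3 island reads in DMSO (SD, n = 4) and 1415 ± 37.5 in TBT, a log2 change of 0.00 ± 0.03 (SE). The Hoxa region over Hoxa5 to Hoxa11, chr6:52198401-52255200, held 882 ± 27.4 and 918 ± 26.8 CPM, a log2 change of 0.06 ± 0.04. The region at Hoxa13, chr6:52257201-52267200, held 50.0 ± 9.67 and 38.2 ± 2.87 CPM, a log2 change of -0.40 ± 0.13 with adjusted p = 0.40 by edgeR. The other two of the 3 are in Hoxd. One, inside the Hoxd3 gene at chr2:74731801-74741000, held 9.77 ± 5.70 CPM in DMSO and 22.3 ± 11.8 in TBT, a log2 change of 1.18 ± 0.44 (adjusted p = 0.49, edgeR), with overlapping libraries. The other, over the Hoxd3 start at chr2:74710401-74713200, held 10.8 ± 2.75 and 7.59 ± 0.94 CPM, a log2 change of -0.51 ± 0.22 (adjusted p = 0.57, edgeR). The H3K27me3 region over Hoxd, chr2:74653601-74773600, held 1754 ± 71.7 and 1739 ± 87.2 CPM, a log2 change of -0.01 ± 0.09.

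The length of each cluster under islands and its share of island reads were compared in 16 exact permutation tests (4 clusters, 2 marks, 2 measures, 70 arrangements each, two-sided). The smallest p that 4 against 4 libraries allow is 0.0286, so after adjustment over the 16 no test could pass 0.05 unless most of them reached that p. The smallest adjusted p was 0.327, and the lack of a call says little about these values. H3K27me3 islands covered 30.1, 17.4, 18.5 and 24.7 kb of the Hoxa window in DMSO and 32.7, 45.3, 35.1 and 28.3 kb in TBT. The groups overlapped, and the mean difference of 12.7 kb had p = 0.0571 in the exact permutation test. In Hoxc they covered 30.3, 29.3, 31.9 and 28.5 kb in DMSO and 39.5, 30.7, 34.3 and 37.9 kb in TBT, a difference of 5.60 kb with p = 0.0571 in the same exact permutation test. With islands at a false discovery rate of at most 1e-10 the difference over Hoxa was 3.87 kb (p = 0.543, exact permutation test). That over Hoxc was 3.50 kb (p = 0.0571, exact permutation test). Over Hoxd the H3K27me3 difference grew at this threshold from 8.40 to 21.1 kb (p = 0.0286, adjusted p = 0.305, exact permutation test). With whole islands it was 19.7 kb over Hoxa and turned to -2.6 kb over Hoxc. H3K4me3 islands covered 62.6 ± 2.59 kb of the Hoxa window in DMSO (SD, n = 4) and 72.1 ± 7.82 kb in TBT (p = 0.0857, exact permutation test). Without flanks that difference was 12.55 kb (p = 0.0286, adjusted p = 0.229, exact permutation test). At the strict island threshold it was 12.3 kb (p = 0.143, exact permutation test). Over the Hoxd window H3K4me3 islands covered 36.2, 9.80, 27.2 and 26.6 kb in DMSO and 34.98, 31.6, 47.6 and 36.2 kb in TBT, with p = 0.114 in the exact permutation test. The Hoxd difference of 12.6 kb became 3.74 kb at the strict island threshold. As shares of island reads, H3K27me3 over Hoxa was 20.7 ± 5.52 per 100000 in DMSO (SD, n = 4) and 24.9 ± 4.42 in TBT, and over Hoxd 81.5 ± 6.89 and 76.7 ± 3.04. At the strict threshold the direction over Hoxa turned, with 50.1 ± 21.05 in DMSO and 41.2 ± 7.79 in TBT. Island calls moved with the libraries: the 4 DMSO libraries of H3K27me3 had 106 to 167 Mb under islands with 6153079 to 9574234 island reads, and the 4 TBT libraries 155 to 177 Mb with 8741573 to 11358001. The part of that difference in the cluster lengths was not tested. All libraries of a treatment share its 1 input, so effects of the input and of the treatment on island calls cannot be told apart.

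**Figure D3:**
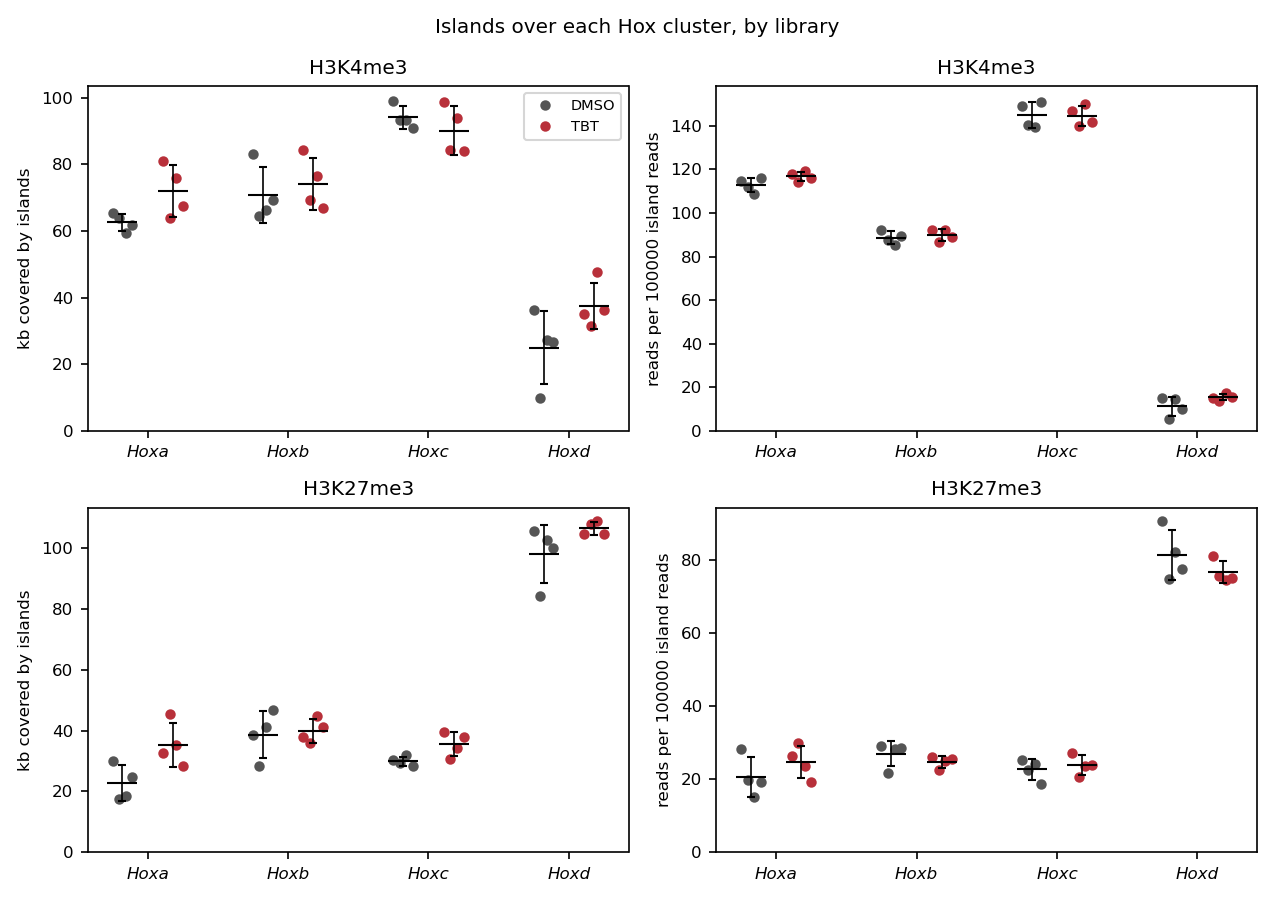
Length under islands (left, kb) and reads per 100000 island reads (right) over each cluster window, for H3K4me3 (top) and H3K27me3 (bottom), with 1 point per library and bars for mean ± SD (n = 4). The DMSO and TBT points overlap for H3K27me3 length at Hoxa and Hoxc, and Hoxd has the least H3K4me3 and the most H3K27me3 in both groups.

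In the authors' deposited table of differential H3K27me3 peaks, 2 of 4329 peaks lay in the windows, and both were higher in TBT. One, chr11:96232201-96240000, lies between Hoxb13 and Hoxb9, 31.3 kb from the Hoxb9 start, and the authors' deposited table gives log2 concentrations of 4.02 in DMSO and 6.38 in TBT with a false discovery rate of 0.0115. Islands touched it in 0 of 4 DMSO and 4 of 4 TBT libraries. Where regions with an island in at least 4 of 8 libraries were tested as well, this region had adjusted p = 0.060 by edgeR's quasi-likelihood test. A library without an island entered that test with 0 reads, so the value repeats the island calls and is no separate support. The other, chr15:102950001-102958200, lies over Hoxc11, and the authors' deposited table gives 3.65 and 6.16 with a false discovery rate of 0.0152. Islands touched it in 0 of 4 DMSO and 2 of 4 TBT libraries. Of the H3K27me3 peaks in the authors' deposited table, 47.5% were higher in TBT, and none of the 246 H3K4me3 peaks in the authors' deposited table lay in a window.

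At single promoters, 12 Hox genes carried both marks in TBT cells against 7 in DMSO, and 3 carried H3K27me3 alone against 8. Hoxb13 had H3K4me3 in 3 of 4 TBT and 0 of 4 DMSO libraries, Hoxa11 in 4 of 4 and 2 of 4, and Hoxd10 and Hoxd13 in 4 of 4 and 2 of 4. Hoxa10 had H3K27me3 at 1 or both of its 2 starts in 3 of 4 TBT libraries and 1 of 4 DMSO libraries. In TBT replicates 3 and 4 the domain ended at chr6:52240001 and chr6:52241401, short of the Hoxa10 start whose sequence is shown. Hoxb1 had H3K27me3 in 0 of 4 TBT and 3 of 4 DMSO libraries. Over all genes of the promoter table the share with both marks was 6.90% in TBT and 5.00% in DMSO, and the share with H3K27me3 alone was 7.58% and 5.64%, higher in TBT where the Hox count was lower. With islands at a false discovery rate of at most 1e-10, the Hox count with both marks was 5 in DMSO and 5 in TBT, and that with H3K27me3 alone 6 and 9. These counts carry no test, and they too rest on 1 input per treatment.

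For RNA, 7 of the 26 measured Hox genes were higher and 2 lower in TBT than in DMSO (edgeR quasi-likelihood test, adjusted p of at most 0.05 over all 12529 genes tested), where 15% of all genes tested were called higher and 13.9% lower. Hoxa4, Hoxa10, Hoxb3, Hoxb8, Hoxc6, Hoxc12 and Hoxc13 rose, and Hoxa7 and Hoxc5 fell. With scaling by the ERCC spike-ins the split was 7 higher and 0 lower, and calls over all genes fell from 3623 to 2095. The median change over the 26 was 0.12 on the log2 scale, against -0.01 over all genes. In 4204, 7 were higher and 0 lower, where 12.8% of all genes were called higher and 11.3% lower, and the median over the 26 was 0.09. ERCC scaling left 5 higher and 0 lower in 4204, and calls over all genes fell from 3014 to 1208. ROSI against DMSO gave 0 Hox calls by edgeR and by DESeq2, where 0.615% of all genes were called higher and 0.423% lower. At an unadjusted p of at most 0.05 by edgeR, 3 Hox genes were higher and 4 lower in ROSI. Of all 12529 genes, 634 were higher and 779 lower at that p. The 3 comparisons share the DMSO libraries.

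**Figure D4:**
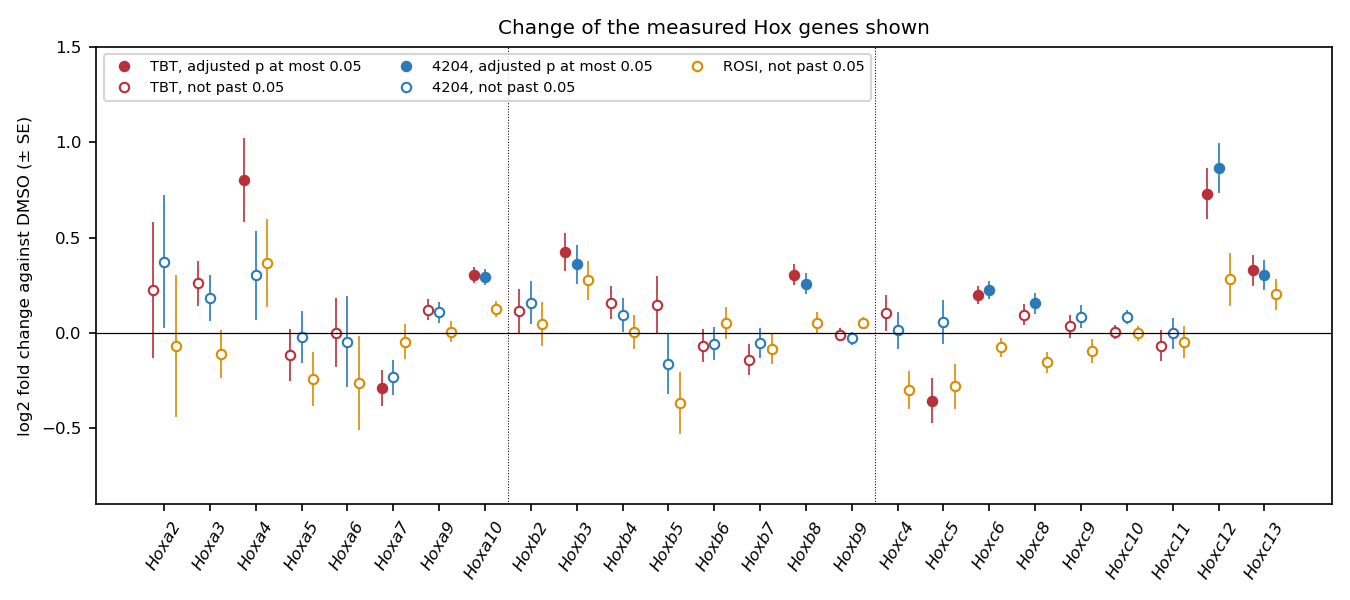
Log2 fold change against DMSO (± SE, n = 6 per group) of the measured Hox genes shown, in cluster and paralog order, for TBT, 4204 and ROSI, with filled points past the adjusted threshold. Hoxc12 and Hoxa4 show the largest rises, and no ROSI point is filled.

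Hoxc12 at the posterior end of Hoxc, a gene under both marks, had 10.03, 11.9 and 15.9 CPM in DMSO (lowest, median and highest of 6 libraries), 14.3, 21.03 and 24.7 in TBT, 18.1, 22.95 and 26.2 in 4204 and 12.5, 14.7 and 18.8 in ROSI. All 6 libraries of 4204 lay above all of DMSO, while TBT and DMSO overlapped. It rose by 0.73 ± 0.13 (SE) in TBT, adjusted p = 4.45e-05 by edgeR, and by 0.86 ± 0.13 in 4204, adjusted p = 3.09e-06. Its neighbour Hoxc13, also under both marks, had 31.8, 34.7 and 39.76 CPM in DMSO, 39.84, 42.1 and 50.9 in TBT, 36.2, 42.9 and 49.95 in 4204 and 37.5, 40.03 and 44.9 in ROSI. The TBT libraries all lay above the DMSO libraries, by little at the nearest pair. Hoxc13 rose by 0.33 ± 0.08 in TBT (adjusted p = 0.0016, edgeR) and by 0.30 ± 0.08 in 4204 (0.0041). Hoxc11, next to them under H3K4me3 alone in DMSO, had a log2 change of -0.07 ± 0.08 in TBT and 0.00 ± 0.08 in 4204, and neither passed the test.

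Hoxc6, a thoracic gene under the broad H3K4me3 island, had 118, 129 and 138 CPM in DMSO, 134, 147 and 162 in TBT, 136, 152 and 162 in 4204 and 117, 121 and 128 in ROSI. Each TBT and 4204 library lay above the DMSO median, with some overlap. It rose by 0.20 ± 0.05 in TBT (adjusted p = 0.0012, edgeR) and by 0.23 ± 0.05 in 4204 (3.23e-04). Hoxc8, which patterns the lower thorax, had 68.7, 73.4 and 76.8 CPM in DMSO, 73.6, 76.98 and 85.4 in TBT, 72.7, 80.5 and 91.1 in 4204 and 62.96, 66.7 and 67.4 in ROSI. It rose by 0.15 ± 0.05 in 4204 (adjusted p = 0.035, edgeR) and not past the threshold in TBT (0.10, 0.20). The Hoxc8 call in 4204 was lost with ERCC spike-in scaling (log2 change 0.17, adjusted p = 0.24, edgeR) and with no filter (0.15, adjusted p = 0.088), while the change stayed as large. Hoxc5 had 22.7, 29.1 and 39.01 CPM in DMSO, 17.4, 23.6 and 28.3 in TBT, 26.3, 28.3 and 36.5 in 4204 and 21.7, 24.9 and 26.1 in ROSI. It fell by 0.36 ± 0.12 in TBT (adjusted p = 0.021, edgeR), with 6 of 6 TBT libraries below the DMSO median, and with ERCC scaling this call was lost (log2 change -0.27, adjusted p = 0.26). Its change in 4204 was 0.06, not past the threshold.

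In Hoxa, Hoxa10 had 100.4, 104 and 109 CPM in DMSO, 119.7, 131 and 134 in TBT, 122, 129 and 133 in 4204 and 106, 114 and 119 in ROSI. TBT and 4204 libraries lay above every DMSO and ROSI library. Hoxa10 rose by 0.30 ± 0.04 in TBT (1.24-fold, adjusted p = 2.85e-07, edgeR) and by 0.29 ± 0.04 in 4204 (9.31e-07). Hoxa4, a gene of the neck skeleton, had 2.49, 3.75 and 6.47 CPM in DMSO, 5.33, 6.60 and 10.701 in TBT, 3.28, 5.20 and 6.099 in 4204 and 3.96, 4.92 and 7.14 in ROSI. It rose by 0.80 ± 0.22 in TBT (adjusted p = 0.0050, edgeR), on 109 counts in all of DMSO, and its change of 0.30 in 4204 did not pass the test. The direct difference between TBT and 4204, 0.50, had adjusted p = 0.39. Hoxa7 had 27.8, 33.5 and 36.7 CPM in DMSO, 22.4, 26.99 and 32.5 in TBT, 23.1, 28.5 and 32.1 in 4204 and 25.6, 32.96 and 36.6 in ROSI. It fell by 0.29 ± 0.09 in TBT (adjusted p = 0.017, edgeR), with 6 of 6 libraries below the DMSO median, and the call was lost with ERCC scaling (log2 change -0.21, adjusted p = 0.27). In 4204 its change was -0.23, with adjusted p = 0.065 by edgeR.

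In Hoxb, Hoxb8, known for the thoracic spine and for immature blood cells, had 84.7, 89.6 and 99.00 CPM in DMSO, 94.2, 114 and 121 in TBT, 100.7, 111 and 115 in 4204, and 85.9, 93.9 and 102 in ROSI. Only TBT replicate 2 lay among the DMSO libraries. Hoxb8 rose by 0.31 ± 0.06 in TBT (adjusted p = 5.73e-05, edgeR) and by 0.26 ± 0.06 in 4204 (6.34e-04). Hoxb3, of the hindbrain and neck, had 15.7, 17.2 and 22.9 CPM in DMSO, 20.1, 24.2 and 28.3 in TBT, 21.8, 23.03 and 25.2 in 4204 and 20.02, 21.3 and 25.6 in ROSI. It rose by 0.43 ± 0.10 in TBT (adjusted p = 0.0012, edgeR) and by 0.36 ± 0.10 in 4204 (0.0074), and the 4204 call was lost with ERCC scaling at a log2 change of 0.37 (adjusted p = 0.071). Its gene body holds Hoxb4, which had a log2 change of 0.16 in TBT and 0.09 in 4204 and was not called in either. The summed level of each cluster was 270 ± 9.32 CPM for Hoxa in DMSO (SD, n = 6) and 304 ± 13.2 in TBT, 449 ± 11.005 and 477 ± 20.3 for Hoxb, and 641 ± 22.7 and 680 ± 39.9 for Hoxc.

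No Hox gene was called between TBT and 4204, while 8 were called in each comparison of the 2 with ROSI. TBT (50 nM) against 4204 (100 nM), at doses that differ, gave 0 Hox calls by edgeR and by DESeq2, where 0.407% of all genes were called higher and 0.439% lower. At an unadjusted p of at most 0.05 by edgeR, 1 Hox gene was higher and 2 were lower in TBT. Of all 12529 genes, 633 were higher and 636 lower at that p. Hoxa10 differed by 0.01 ± 0.04 and Hoxc12 by -0.13 ± 0.12. Hoxc5 had the smallest adjusted p, with a log2 difference of -0.41 ± 0.12 and adjusted p = 0.094 by edgeR. It passed with no filter (0.031) and with a replicate block (0.046). Against ROSI, TBT was higher at 8 Hox genes and lower at 0, where 15.2% of all genes were called higher and 13.5% lower, and 4204 was also higher at 8 and lower at 0, where the shares were 13.5% and 11.2%. The 8 for TBT were Hoxa3, Hoxa10, Hoxb5, Hoxb8, Hoxc4, Hoxc6, Hoxc8 and Hoxc12. The 8 for 4204, tested at the same dose and time as ROSI, were Hoxa10, Hoxb8, Hoxc4, Hoxc5, Hoxc6, Hoxc8, Hoxc9 and Hoxc12. The 2 comparisons share the ROSI libraries.

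Hoxa3, Hoxb5, Hoxc4 and Hoxc9 were called against ROSI and in no comparison with DMSO. Hoxc4, the anterior end of Hoxc, had 18.9, 20.3 and 22.8 CPM in DMSO, 13.97, 16.98 and 18.5 in ROSI, 18.6, 20.5 and 24.1 in 4204 and 18.8, 21.3 and 25.9 in TBT. It was higher in TBT than in ROSI by 0.40 ± 0.10 (adjusted p = 0.0016, edgeR) and higher in 4204 by 0.31 ± 0.10 (0.018; 0.066 with no filter, at the same change), and every ROSI library lay below every other library. Hoxc8 was higher by 0.25 ± 0.06 in TBT (adjusted p = 7.03e-04, edgeR) and by 0.31 ± 0.06 in 4204 (5.49e-05) than in ROSI, with no overlap. Hoxb5, of the lung and shoulder, had 6.90, 10.3 and 13.04 CPM in ROSI, 11.1, 14.7 and 17.6 in TBT, 9.00, 11.9 and 16.6 in 4204 and 10.6, 12.4 and 17.5 in DMSO, and was higher in TBT than in ROSI by 0.52 ± 0.16 (adjusted p = 0.013, edgeR). Hoxa3, of the pharyngeal organs, had 11.3, 14.9 and 19.5 CPM in ROSI, 18.04, 19.4 and 23.99 in TBT, 17.5, 19.3 and 19.8 in 4204 and 13.3, 16.1 and 20.8 in DMSO, and was higher in TBT than in ROSI by 0.37 ± 0.12 (0.019). Hoxc9 had 94.5, 102 and 113 CPM in ROSI, 108, 116 and 127 in 4204, 89.8, 115 and 131 in TBT and 105, 109 and 118 in DMSO, and was higher in 4204 than in ROSI by 0.18 ± 0.06 (adjusted p = 0.028, edgeR). Hoxc5 was higher in 4204 than in ROSI by 0.34 ± 0.12 (0.031). With ERCC scaling the Hox count for 4204 against ROSI fell from 8 to 4, and that over all genes from 3097 to 1346. The log2 differences of the 4 Hox calls that were lost were larger than without ERCC scaling. They were 0.22 for Hoxa10, 0.36 for Hoxc4, 0.39 for Hoxc5 and 0.23 for Hoxc9, with adjusted p from 0.050 to 0.10 by edgeR. The Hox count for TBT against ROSI rose from 8 to 11 (Hoxb4, Hoxc9 and Hoxc13 were added), while calls over all genes fell from 3598 to 2598. The all-gene median of TBT against ROSI shifted by 0.13.

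**Figure D5:**
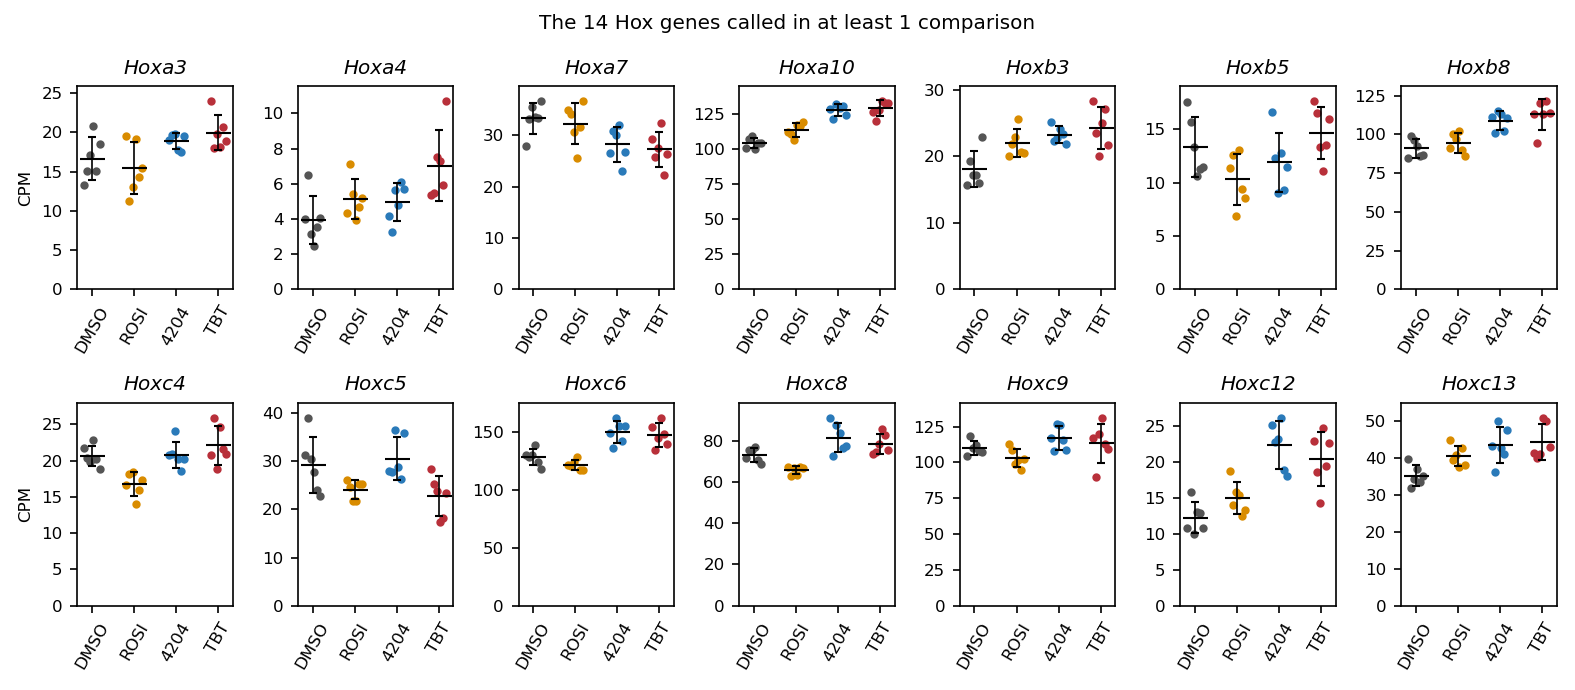
Level in CPM of the 14 Hox genes called in at least 1 of the 6 comparisons, with 1 point per library (6 per group) and bars for mean ± SD, on axes that start at 0. Hoxa10 and Hoxb8 are high in 4204 and TBT, Hoxc12 is lowest in DMSO, and Hoxc4 and Hoxc8 are lowest in ROSI.

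Some genes that work with or upstream of Hox proteins rose and some fell. Their counts stand beside 15% of all genes called higher and 13.9% lower in TBT, 12.8% and 11.3% in 4204, and 0.615% and 0.423% in ROSI. Of 9 TALE cofactors, homeodomain proteins that bind DNA together with Hox proteins, 8 were tested: 3 rose and 0 fell in TBT, and 4 rose and 0 fell in 4204, with median changes of 0.13 in both. Pknox2 rose by 1.00 ± 0.12 in TBT, from 19.9 to 40.0 CPM (adjusted p = 1.64e-08, edgeR), and by 0.98 ± 0.12 in 4204. Meis1 rose by 0.40 ± 0.05 and 0.29 ± 0.05, and Meis2 by 0.17 ± 0.04 and 0.23 ± 0.04. None of the 8 passed the test in ROSI. Of 14 caudal and retinoid genes, which act upstream of Hox genes in the embryo, 7 were tested: 1 rose and 2 fell in TBT, 3 rose and 1 fell in 4204, and 2 rose and 1 fell in ROSI. Cyp26b1, which degrades retinoic acid, rose by 2.50 ± 0.04 in TBT, 2.53 ± 0.04 in 4204 and 0.63 ± 0.05 in ROSI. Rarb, a retinoic acid receptor, rose by 0.62 ± 0.07 in 4204 (adjusted p = 3.41e-09, edgeR) and fell by 0.50 ± 0.08 in ROSI (5.01e-05). Crabp1, a carrier of retinoic acid, fell by 0.38 ± 0.06 in both TBT and 4204.

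On the trithorax side all 9 genes were tested: 1 rose and 2 fell in TBT, and 1 rose and 4 fell in 4204. The TBT counts lie near the shares over all genes. Kdm6b, which removes H3K27me3, rose by 0.44 ± 0.06 in TBT (adjusted p = 1.79e-07, edgeR) and by 0.26 ± 0.06 in 4204. Ash2l and Wdr5, core subunits of H3K4 methyltransferase complexes, had log2 changes of -0.15 ± 0.04 (adjusted p = 0.0068, edgeR) and -0.12 ± 0.05 (0.086) in TBT, and of -0.15 ± 0.04 (0.0085) and -0.18 ± 0.05 (0.012) in 4204. On the Polycomb side all 21 were tested: 6 rose and 6 fell in TBT, 3 rose and 4 fell in 4204, and 0 were called in ROSI by edgeR. Ezh2, the methyltransferase of Polycomb repressive complex 2, had a log2 change of -0.30 ± 0.04 in TBT (adjusted p = 5.03e-07, edgeR), and Phf19, which helps recruit that complex, -0.42 ± 0.09 (2.01e-04). Both are among the 6 that fell in TBT, and none of the 6 that rose is named here. The medians of both lists, -0.10 and 0.02 in TBT, stand beside -0.01 over all genes.

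Non-coding genes and neighbours of the clusters gave no call in TBT, 4204 or ROSI among the 5 of 21 tested. The antisense gene Hoxaas3 had a log2 change of -0.61 ± 0.29 in TBT (adjusted p = 0.12, edgeR), Hoxb3os 0.22 ± 0.24 (0.55) and Mtx2, which flanks Hoxd, -0.07 ± 0.08 (0.51). Hottip, Halr1, Haglr, Evx1 and Evx2 had no count in any library. Hotair, from the Hoxc cluster, had 129 counts over the 24 libraries and was not tested. Of 29 other homeobox and T-box genes that mark position, 16 were tested: 5 rose and 0 fell in TBT, and 4 rose and 1 fell in 4204, with median changes of 0.07 and 0.06. Irx3 rose by 0.98 ± 0.06 in TBT, from 99.8 to 197 CPM (adjusted p = 2.40e-16, edgeR), and by 1.15 ± 0.06 in 4204. Irx5, of the same homeobox family, rose by 0.40 ± 0.06 and 0.37 ± 0.06. Dlx3 rose by 1.56 ± 0.31 and 1.53 ± 0.31, from 1.49 CPM in DMSO.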

How the data were processed

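RNA was measured in 24 libraries and 2 histone marks in 16. Gene counts were made by the authors and deposited as raw counts with 92 ERCC spike-ins; reads given to no gene took 20.9 to 24.3% and ambiguous reads 1.85 to 2.02% of all counts and were left out. STAR, SICER, DiffBind, DESeq2, SAMtools and FastQC are named in the submitters' processing notes, without roles or versions.
Deposited islands (per library, SICER windows of 200 bases and gaps of 600, as named in the deposited files) hold counts of ChIP and input reads, a p-value, a fold ratio over input and a false discovery rate. The deposited differential peaks hold log2 concentrations, log2 differences (DMSO minus TBT) and p-values.
RNA counts were tested with edgeR 4.0.16 (R 4.3.3; filterByExpr, TMM, quasi-likelihood, all 24 libraries in 1 fit, common coefficient of variation 5.24%), with DESeq2 1.42.0 as an alternative; 12529 genes were tested. Island reads were summed over merged islands and tested likewise. Both tests were also run on simulated counts with the same coefficient of variation for all features, unlike the data, and nothing is drawn from those runs here. Same-numbered RNA libraries correlated by -0.046 to 0.123 after removal of group means, so no block was used. No 2 libraries were duplicates.
The members and lists were chosen with earlier results of these data known. Members called in at least 1 comparison are given with full statistics, lists as counts with up to 3 members, and promoters for the 4 called members with the largest change that have one. A few genes that count in the totals are not reported here by name. Protein sequences and exon lengths were not used here, so homeodomains and levels per length are not given.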

Additional observations from a re-analysis of the deposited data

Results flagged for a closer look

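In 104 sets of 6 RNA libraries (26 genes in 4 groups) 5 had 1 library far from the other 5, and in 32 sets of 4 ChIP libraries 2 did; chance alone would flag about 1 in 20 sets. TBT replicate 2 had 3.76 CPM of Hoxa2 against 1.47 to 2.27 in the other TBT libraries, and 94.2 CPM of Hoxb8 against 113 to 121. TBT replicate 1 had 15.2 CPM of Hoxa5 against 10.3 to 12.0, and 22.3 CPM of Hoxb2 against 15.6 to 17.5. ROSI replicate 1 had 205 CPM of Hoxb9 against 216 to 222. For H3K27me3, DMSO replicate 2 had 21.9 per 100000 island reads over Hoxb against 28.4 to 29.3, and TBT replicate 1 had 81.2 over Hoxd against 74.7 to 75.8.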

How the results depend on the processing

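Counts of called Hox genes stayed within 1.5 times the reported ones under every alternative run except TBT against 4204 with no filter and with the replicate block (1 each, Hoxc5) and 4204 against ROSI with ERCC scaling (4). The replicate block gave 9, 7, 0, 8 and 8 calls in the other 5 comparisons and 0 histone regions. Of the 32 single gene calls, 8 were lost with ERCC scaling and 2 with no filter, and none changed direction. Calls over all genes also fell with ERCC scaling in each of the 6 comparisons, for 4204 against DMSO from 3014 to 1208. The cause was not tested.
With islands at a false discovery rate of at most 1e-10, TBT minus DMSO became -0.40 reads per 100000 for H3K4me3 over Hoxb, -8.91 and -10.8 for H3K27me3 over Hoxa and Hoxc, and -0.16 kb for H3K27me3 over Hoxb. With whole islands it became -6.1 kb over Hoxb, -2.6 kb over Hoxc and -5.94 reads per 100000 over Hoxc, all H3K27me3. Over the cluster without flanks it was 2.03 for H3K4me3 reads over Hoxc. Leaving out 1 library in turn gave -2.25 to 1.58 for that value, -2.18 to 4.02 kb for H3K27me3 over Hoxb and -0.21 to 2.17 for H3K27me3 reads over Hoxc.
Promoters with neither mark in DMSO numbered 1 with windows of 2.5 kb, 7 at the strict island threshold and 6 where all 4 libraries were required. In TBT the strict threshold gave 5 with both marks and 9 with H3K27me3 alone.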
